A study of Mus musculus with 8 samples.

Results

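Receptors that guide the movement of blood cells are described here, 9 in all: Cxcr4, Ccr9, Ccr7, Ccr2, Cxcr3, Cxcr5 and Cx3cr1, which bind chemokines, S1pr1, which binds sphingosine 1-phosphate, and Gpr183, which binds oxysterols. They were taken as a fixed list of 9 genes out of 37991 gene IDs, by matching the IDs to the gene symbols of the GENCODE M1 annotation. All 9 were matched, and all 9 passed the filter on low counts. The cells were lymphoid progenitors biased towards the B lineage, from mice aged 5 to 12 weeks, in 4 H2afy_KO pools from H2afy-/- mice and 4 H2afy_WT pools from H2afy+/+ mice. H2afy encodes the histone variant macroH2A1. Cells of both groups were enriched from bone marrow for Kit and then sorted by flow cytometry. Each pool held RNA of 5000 to 15000 cells from 2 to 3 mice, and nothing in the labels tells whether a mouse gave RNA to more than 1 pool, so p-values measure the spread between pools as deposited.

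Chemokine receptors are G protein-coupled receptors that turn a gradient of a secreted ligand into directed movement, mostly through inhibitory G proteins. Cxcr4 holds haematopoietic progenitors and developing B cells near stroma that makes Cxcl12. Ccr9 and Ccr7 direct progenitors towards the thymus, Cxcr5 and Gpr183 place mature B cells within lymphoid tissue, and S1pr1 drives exit of cells into blood. Ccr2 and Cx3cr1 are best known on monocytes, and Cxcr3 on effector T cells, natural killer cells and plasmacytoid dendritic cells.

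The pools held 21330088 to 29029765 gene counts, and 13722 genes were tested. H2afy itself had 1423 to 1953 CPM (edgeR's counts scaled to library size, with TMM factors) in H2afy_KO pools and 1981 to 2567 CPM in H2afy_WT pools (log2 fold change -0.45). Which exons the allele lacks is unknown here, and a count over the whole gene is no check of genotype. Markers of the sorted progenitor were present: Flt3 averaged 1022 ± 147 CPM in H2afy_KO pools, against 980.4 ± 90.9 CPM in H2afy_WT pools, and Il7r 341 ± 17.7 CPM in H2afy_KO pools, against 426 ± 30.4 CPM in H2afy_WT pools (SD, n = 4 each). Other progenitor markers differed more: Igll1 averaged 214 ± 129 CPM in H2afy_KO pools, against 784 ± 380 CPM in H2afy_WT pools. Ebf1 averaged 157 ± 73.35 CPM in H2afy_KO pools, against 418 ± 180 CPM in H2afy_WT pools. The 12 progenitor markers summed to 6851 to 8523 CPM in H2afy_KO pools and 9464 to 11891 CPM in H2afy_WT pools, without overlap. Of the 12, 10 had negative log2 fold changes. By unadjusted edgeR p under 0.05, 9 were lower and 0 higher, where 3.69% of all tested genes were lower. Without overlap 7 were lower, against 2.35% of all tested genes, and 0 passed after adjustment. The part of this difference in the receptor values was not tested. Immunoglobulin genes took 0.402% to 39.0% of counts in H2afy_KO pools and 0.948% to 19.5% in H2afy_WT pools, with the highest shares in H2afy_KO 3 and 4. In bulk samples, fewer cells that carry a transcript and less of it per cell cannot be told apart.

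Per length of exon, Ccr9 and Cxcr4 were the most abundant of the 9 receptors in both genotypes. Ccr9 averaged 31.3 ± 10.6 CPM per kilobase in H2afy_KO and 30.2 ± 10.4 CPM per kilobase in H2afy_WT, and Cxcr4 averaged 30.9 ± 5.89 in H2afy_KO and 27.6 ± 2.34 in H2afy_WT (SD, n = 4 each). Ccr7 followed with 17.4 ± 6.25 CPM per kilobase in H2afy_KO and 23.2 ± 4.98 in H2afy_WT. Cx3cr1 came next with 10.4 ± 1.87 CPM per kilobase in H2afy_KO and 7.91 ± 2.49 in H2afy_WT. Ccr9, Cxcr4 and Ccr7 lay above 84.8%, 84.0% and 78.7% of all tested genes in mean level per kilobase, and Cx3cr1 above 63.9%. The remaining receptors were lower, from 4.70 ± 1.68 CPM per kilobase (Ccr2) to 1.16 ± 0.670 (Cxcr5) in H2afy_KO, and from 4.42 ± 1.18 (S1pr1) to 1.09 ± 0.272 (Gpr183) in H2afy_WT.

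Ranges of neighbours in this order mostly overlapped. In H2afy_KO pools the only neighbours whose ranges stood apart were Cx3cr1 and Ccr2, and in H2afy_WT pools they were Ccr7 and Cx3cr1. The order of the lower receptors differed between the genotypes: Gpr183 ranked above Cxcr3 in H2afy_KO, where their ranges overlapped, and below it in H2afy_WT, where they did not. That difference in order was not tested.

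**Figure D1:**
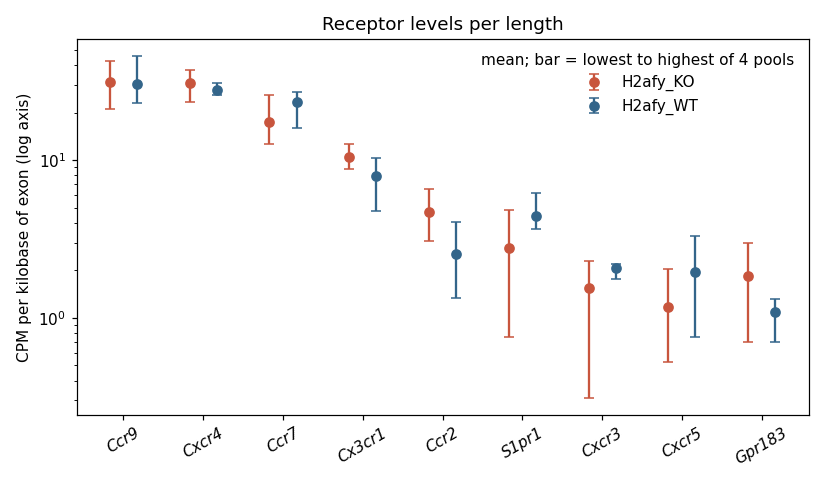
Level of each receptor gene in CPM per kilobase of exon (log axis), H2afy_KO left of H2afy_WT; points are means and bars run from the lowest to the highest of 4 pools. Ccr9, Cxcr4 and Ccr7 stand at 17.4 to 31.3 on average, and Cxcr3, Cxcr5 and Gpr183 near 1 to 2.

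Ccr9, Ccr2, Cxcr5 and Cx3cr1 lie on chromosome 9 of NCBIM37, the assembly named mm9. Cxcr4 (ENSMUSG00000045382) spans chr1:130484776-130488870 on the minus strand, Ccr9 (ENSMUSG00000029530) spans chr9:123587557-123691089 on the plus strand, and Ccr2 (ENSMUSG00000049103) spans chr9:124016689-124028296 on the plus strand. The other 6 receptors are on the minus strand. Ccr7 (ENSMUSG00000037944) spans chr11:99005510-99016391, Cxcr5 (ENSMUSG00000047880) chr9:44319871-44334504, Cx3cr1 (ENSMUSG00000052336) chr9:119957811-119977400 and Cxcr3 (ENSMUSG00000050232) chrX:98926874-98929608. S1pr1 (ENSMUSG00000045092) spans chr3:115413351-115417973 and Gpr183 (ENSMUSG00000051212) chr14:122351553-122364415. RefSeq windows before the gene start, on build GRCm38.p6, matched 6 of the 9 genes. Those RefSeq starts were not compared with the GENCODE spans above and need not be the same starts, as for the long span of Ccr9. The 250 bases before the start are printed for Cxcr4 and Ccr9, the most abundant receptors, and for Ccr2, which had the largest difference between genotypes. Capitals mark matches to CANNTG, the E-box core bound by factors such as E2A, and to TATAAA, the TATA box core, each searched on both strands.
Cxcr4, chr1:128592300-128592549, minus strand: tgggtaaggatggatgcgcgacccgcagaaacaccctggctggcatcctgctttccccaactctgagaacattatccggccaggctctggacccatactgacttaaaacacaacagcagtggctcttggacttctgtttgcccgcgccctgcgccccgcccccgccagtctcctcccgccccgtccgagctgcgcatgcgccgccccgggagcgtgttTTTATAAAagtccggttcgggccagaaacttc
Ccr9, chr9:123766961-123767210, plus strand: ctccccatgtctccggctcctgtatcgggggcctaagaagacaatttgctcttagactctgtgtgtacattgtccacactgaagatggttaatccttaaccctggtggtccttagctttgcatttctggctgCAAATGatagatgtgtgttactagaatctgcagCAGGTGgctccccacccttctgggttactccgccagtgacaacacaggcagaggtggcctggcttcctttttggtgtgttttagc
Ccr2, chr9:124101933-124102182, plus strand: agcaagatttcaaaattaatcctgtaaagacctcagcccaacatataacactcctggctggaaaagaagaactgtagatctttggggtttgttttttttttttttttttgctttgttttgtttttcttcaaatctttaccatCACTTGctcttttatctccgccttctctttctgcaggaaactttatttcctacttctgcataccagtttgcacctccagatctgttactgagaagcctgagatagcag

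The Cxcr4 window differed from the other windows in base composition. It held 19 CpG dinucleotides, an observed over expected ratio of 0.84, which was above that of 83.8% of the 32851 RefSeq windows of the same length. The ratio was 0.19 for Ccr9, 0.12 for Ccr2, 0.23 for Cx3cr1, 0.21 for Cxcr3 and 0.33 for Gpr183. TATAAA occurred in the Cxcr4 window alone, starting 30 bases before the gene start, where matches on the 2 strands overlap in TTTATAAA, and in 12.4% of all windows. CANNTG occurred in 5 of the 6 windows, not in that of Cxcr4, and in 66.2% of all windows. These letters are a description of the windows and not a test of binding.

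Loss of H2afy was then compared with wild type for each receptor. By the edgeR quasi-likelihood test with Benjamini-Hochberg adjustment over 13722 genes, 0 of the 9 receptors passed a threshold of 0.05 in either direction. The test called 0 genes of all those tested (0% higher and 0% lower). Before adjustment, 1 receptor had p under 0.05 with a higher level (Ccr2) and 0 with a lower one, where 3.88% of all genes were higher and 3.69% lower. The genotypes overlapped in every one of the 9 receptors, while 2.18% of all tested genes were higher and 2.35% lower without overlap. The median log2 fold change of the 9 was 0.05, against 0.00 for all tested genes, and it ran from -0.13 to 0.13 with single pools left out.

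No receptor passed after adjustment in the other fits. DESeq2 called 0 of them, against 0.357% of genes higher and 0.539% lower over all genes. A replicate block in edgeR left 0 of them called, against 0.0292% higher and 0.0802% lower. DESeq2 with that block also called 0 of them, against 2.07% higher and 1.95% lower. The smallest adjusted p of any receptor over 19 alternative settings was 0.0939, for Ccr2 under DESeq2 with the block. The receptors with an unadjusted p under 0.05 differed between fits. With the replicate block in edgeR, Ccr2 was no longer among them, at an unadjusted p of 0.0816, and Ccr7 was, as lower, at 0.0408. DESeq2 with the block had Ccr2 as higher, at an unadjusted p of 0.0053, and Ccr7 and S1pr1 as lower, at 0.0278 and 0.0156.

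**Figure D2:**
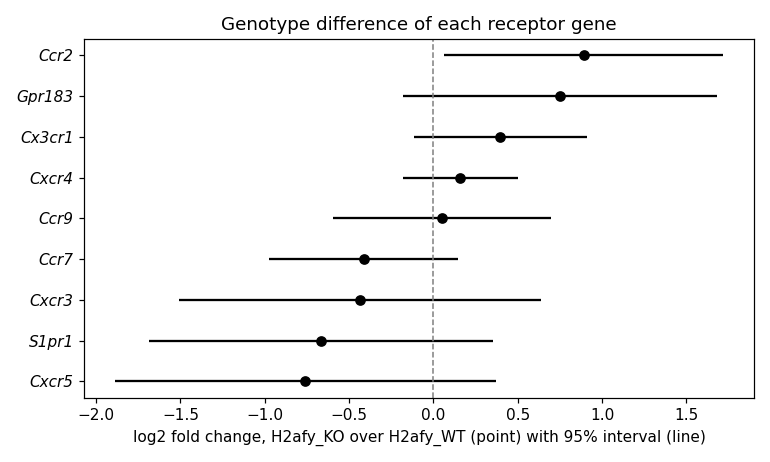
Log2 fold change of each receptor gene, H2afy_KO over H2afy_WT, from the edgeR fit (points) with 95% intervals (lines). Only the interval of Ccr2 leaves out 0, before adjustment over all genes, and the intervals of Cxcr3, Cxcr5 and S1pr1 are over 2 log2 units wide.

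Cxcr4, the marrow retention receptor, had 67.1, 60.3, 53.7 and 42.1 CPM in H2afy_KO 1 to 4, against 46.5, 50.1, 55.9 and 47.5 CPM in H2afy_WT 1 to 4. The H2afy_KO pools reached both above and below all H2afy_WT pools. edgeR gave a log2 fold change of 0.16 (SE 0.16; adjusted p = 0.848). Its 95% interval of -0.18 to 0.50 was the narrowest of the 9. Leaving out H2afy_KO 1 gave 0.05, leaving out H2afy_KO 4 gave 0.27, and leaving out both H2afy_KO 3 and 4 gave 0.36.

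Ccr9, the receptor for the thymic and gut chemokine Ccl25, had 67.6, 75.7, 123 and 136 CPM in H2afy_KO 1 to 4, against 87.1, 73.8, 80.8 and 147 CPM in H2afy_WT 1 to 4. H2afy_KO 3 and 4 and H2afy_WT 4 held the high values, and the ranges of the genotypes overlapped almost wholly. The difference came to 0.05 on the log2 scale (SE 0.29; adjusted p = 0.981 by edgeR). Without both H2afy_KO 3 and 4 it was -0.43, and leaving out single pools gave -0.13 to 0.32. Genes annotated across the long span of Ccr9 share 325 of its 3217 exonic bases, and those genes had 21, 23 and 5 counts in all 8 pools together.

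Ccr7, the receptor for Ccl19 and Ccl21, had 51.2, 24.9, 25.4 and 36.3 CPM in H2afy_KO 1 to 4, against 47.8, 53.2, 31.6 and 51.1 CPM in H2afy_WT 1 to 4. H2afy_KO 2 and 3 lay below every H2afy_WT pool, and H2afy_KO 1 lay among the highest. In the edgeR fit its log2 fold change was -0.41 (SE 0.25; adjusted p = 0.736), with a 95% interval of -0.97 to 0.14. It was -0.67 without H2afy_KO 1 and -0.26 without both H2afy_KO 3 and 4.

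Ccr2, the receptor for Ccl2 and related monocyte chemokines, had 19.6, 41.7, 36.6 and 22.4 CPM in H2afy_KO 1 to 4, against 12.2, 8.49, 18.1 and 26.0 CPM in H2afy_WT 1 to 4. H2afy_KO 2 and 3 lay above every H2afy_WT pool, and the other 2 fell within the H2afy_WT range. The means were 30.1 ± 10.8 CPM for H2afy_KO and 16.2 ± 7.64 CPM for H2afy_WT (SD, n = 4 each), a log2 fold change of 0.89 (SE 0.37; 95% interval 0.07 to 1.72). The unadjusted p was 0.0371 and the adjusted p 0.624. The direction held in all 19 alternative settings, with values of 0.67 to 1.21, but an unadjusted p under 0.05 did not. That p was 0.0598 with limma-voom and 0.0816 with the replicate block in edgeR. With single pools left out, the edgeR unadjusted p ran from 0.0056 (without H2afy_WT 4) to 0.108 (without H2afy_KO 2). Of the 6439 stretches of 50 bases in Ccr2 transcripts, 1.86% also occur in transcripts of other genes.

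Cx3cr1, the receptor for the membrane-bound chemokine Cx3cl1, had 47.1, 42.0, 33.6 and 32.6 CPM in H2afy_KO 1 to 4, against 26.5, 17.7, 35.2 and 38.4 CPM in H2afy_WT 1 to 4. H2afy_KO 1 and 2 lay above every H2afy_WT pool and the other H2afy_KO pools fell within the H2afy_WT range. On the log2 scale the fold change stood at 0.40 (SE 0.23; edgeR adjusted p = 0.729). It was 0.21 without H2afy_WT 2, and 0.61 without both H2afy_KO 3 and 4. Across the 8 pools its Pearson r with Ccr2 was 0.75, the highest r among the 36 pairs of receptors, while the Spearman rho of 0.60 was below that of 3 other pairs, led by Cxcr3 and Cxcr5 at 0.86. That value is a description over pools that share the genotype contrast and depth scaling.

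Markers of monocytes, macrophages and granulocytes had changes of both signs beside Ccr2 and Cx3cr1. Their 18 genes summed to 1175 to 3160 CPM in H2afy_KO pools and 1360 to 5959 CPM in H2afy_WT pools, led by Mpo, S100a8 and Elane. Of the 17 tested, 8 had positive and 9 negative log2 fold changes, and 0 passed. Csf1r, the growth factor receptor of monocytes, averaged 30.5 ± 8.22 CPM in H2afy_KO pools, against 19.4 ± 6.86 CPM in H2afy_WT pools (SD, n = 4 each). Cd68, a macrophage marker, averaged 78.9 ± 13.9 CPM in H2afy_KO pools, against 28.8 ± 8.05 CPM in H2afy_WT pools, without overlap (log2 fold change 1.45, SE 0.21, edgeR adjusted p = 0.0579). Other genes of the list had lower means in H2afy_KO. S100a8 averaged 164 ± 78.7 CPM in H2afy_KO pools, against 486 ± 419 CPM in H2afy_WT pools. It had 843 and 853 CPM in H2afy_WT 1 and 4, but 79.6 and 169 CPM in H2afy_WT 2 and 3. Lyz2 averaged 108 ± 17.2 CPM in H2afy_KO pools, against 257 ± 188 CPM in H2afy_WT pools. F13a1 averaged 28.8 ± 19.2 CPM in H2afy_KO pools, against 44.1 ± 42.9 CPM in H2afy_WT pools. Itgam averaged 48.1 ± 8.60 CPM in H2afy_KO pools, against 55.5 ± 18.7 CPM in H2afy_WT pools. Csf3r, the receptor for the granulocyte growth factor, averaged 18.8 ± 3.33 CPM in H2afy_KO pools, against 33.001 ± 5.37 CPM in H2afy_WT pools, without overlap (edgeR adjusted p = 0.363). The part of such cells in the Ccr2 values was not tested.

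Cxcr3, the receptor for the interferon-induced chemokines Cxcl9 and Cxcl10, had 0.540, 3.96, 3.70 and 2.45 CPM in H2afy_KO 1 to 4, against 3.04, 3.70, 3.81 and 3.76 CPM in H2afy_WT 1 to 4. H2afy_KO 1 stood alone at the bottom with 17 counts, for which counting error alone gives an exact Poisson 95% interval of 9.90 to 27.2 counts. edgeR gave a log2 fold change of -0.43 (SE 0.49; adjusted p = 0.871), and it was -0.09 without H2afy_KO 1. The T cell, natural killer and innate lymphoid list summed to 473 to 830 CPM in H2afy_KO pools and 705 to 755 CPM in H2afy_WT pools, led by Lck, Nkg7 and Klrd1. Lck averaged 313 ± 81.4 CPM in H2afy_KO pools, against 357 ± 8.36 CPM in H2afy_WT pools, and Nkg7 246 ± 85.3 CPM in H2afy_KO pools, against 322 ± 31.1 CPM in H2afy_WT pools. Klrd1 averaged 27.4 ± 6.56 CPM in H2afy_KO pools, against 13.9 ± 4.597 CPM in H2afy_WT pools, without overlap (log2 fold change 0.98, edgeR adjusted p = 0.426). Cd3e, Cd3d, Gzmb, Eomes and Tbx21 were under 1 CPM in every pool. The part of such cells in the Cxcr3 values was not tested.

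Cxcr5, which guides B cells into follicles, had 1.37, 5.35, 3.40 and 2.07 CPM in H2afy_KO 1 to 4, against 1.99, 3.81, 6.11 and 8.64 CPM in H2afy_WT 1 to 4. The genotypes overlapped and the H2afy_WT pools alone spanned 4.34-fold. The difference came to -0.76 on the log2 scale (SE 0.51; adjusted p = 0.766 by edgeR) with a 95% interval of -1.89 to 0.37. Leaving out H2afy_WT 4 gave -0.39 and leaving out H2afy_KO 2 gave -1.19.

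Gpr183, the oxysterol receptor that positions activated B cells, had 2.06, 3.78, 8.73 and 7.05 CPM in H2afy_KO 1 to 4, against 3.88, 2.08, 3.18 and 3.64 CPM in H2afy_WT 1 to 4. Its high values were those of H2afy_KO 3 and 4, the pools richest in immunoglobulin. In the edgeR fit its log2 fold change was 0.75 (SE 0.42; adjusted p = 0.722), and it was 0.43 without H2afy_KO 3 alone and -0.12 without both pools. Gpr183 lies inside the span of Ubac2 on the opposite strand. The genes share no exonic base, and Ubac2 averaged 33.2 ± 4.46 CPM in H2afy_KO pools, against 36.3 ± 1.03 CPM in H2afy_WT pools (SD, n = 4 each).

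S1pr1, the egress receptor, had 6.95, 9.83, 2.30 and 14.6 CPM in H2afy_KO 1 to 4, against 11.04, 18.7, 11.5 and 12.4 CPM in H2afy_WT 1 to 4. H2afy_KO 1, 2 and 3 lay below every H2afy_WT pool, and H2afy_KO 4 lay within the H2afy_WT range. On the log2 scale the fold change stood at -0.67 (SE 0.45; edgeR adjusted p = 0.773), with a 95% interval of -1.69 to 0.36. It was -0.36 without H2afy_KO 3, the pool with the lowest value, and -1.07 without H2afy_KO 4.

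**Figure D3:**
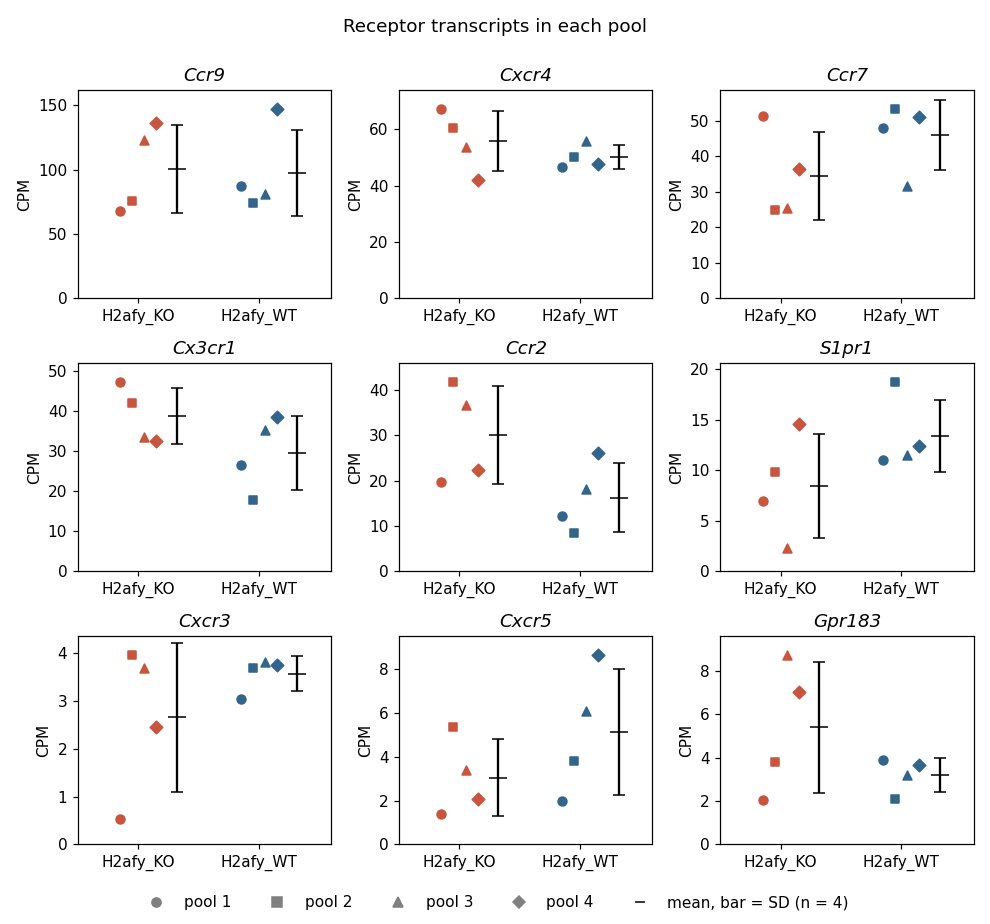
CPM of each receptor gene in the 4 H2afy_KO pools (left in each panel) and the 4 H2afy_WT pools (right); the symbol shows the pool number and the bar the mean with SD (n = 4). The genotypes overlap in all 9 panels, and H2afy_KO 3 and 4 carry the high Gpr183 values of 8.73 and 7.05 CPM.

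The receptors were next set beside the immunoglobulin share of each pool, since that share differed so widely within each genotype. Gpr183 had the highest correlation with the log2 share over the 8 pools, with a Pearson r of 0.85 (exact permutation p = 0.0102, adjusted 0.0915 over the 9 receptors) and a Spearman rho of 0.76 (exact permutation p = 0.0368, adjusted 0.206). The pools farthest from the median share were H2afy_KO 1 and H2afy_WT 2, and without them r came to 0.67 and rho to 0.43. Ccr9 had an r of 0.72 (exact permutation p = 0.0442, 0.188 after adjustment) and a rho of 0.74 (exact permutation p = 0.0458, 0.206 after adjustment). Without those pools its r was 0.50 and its rho 0.37. Ccr7 had an r of -0.70 (exact permutation p = 0.0646, 0.188 after adjustment) and a rho of -0.67 (exact permutation p = 0.0831, 0.249 after adjustment), with -0.50 for r and -0.26 for rho without them. No receptor passed after adjustment, and the other 6 had r between -0.44 and 0.63.

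For Cx3cr1 the pools of the genotypes ran in opposite directions along that share. Among H2afy_KO pools it was highest, at 47.1 CPM, in the pool with 0.402% immunoglobulin and 33.6 CPM in the pool with 39.0%. Among H2afy_WT pools it was lowest, at 17.7 CPM, in the pool with 0.948% and 35.2 CPM in the pool with 19.5%. With 4 pools a genotype, this difference was not tested.

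**Figure D4:**
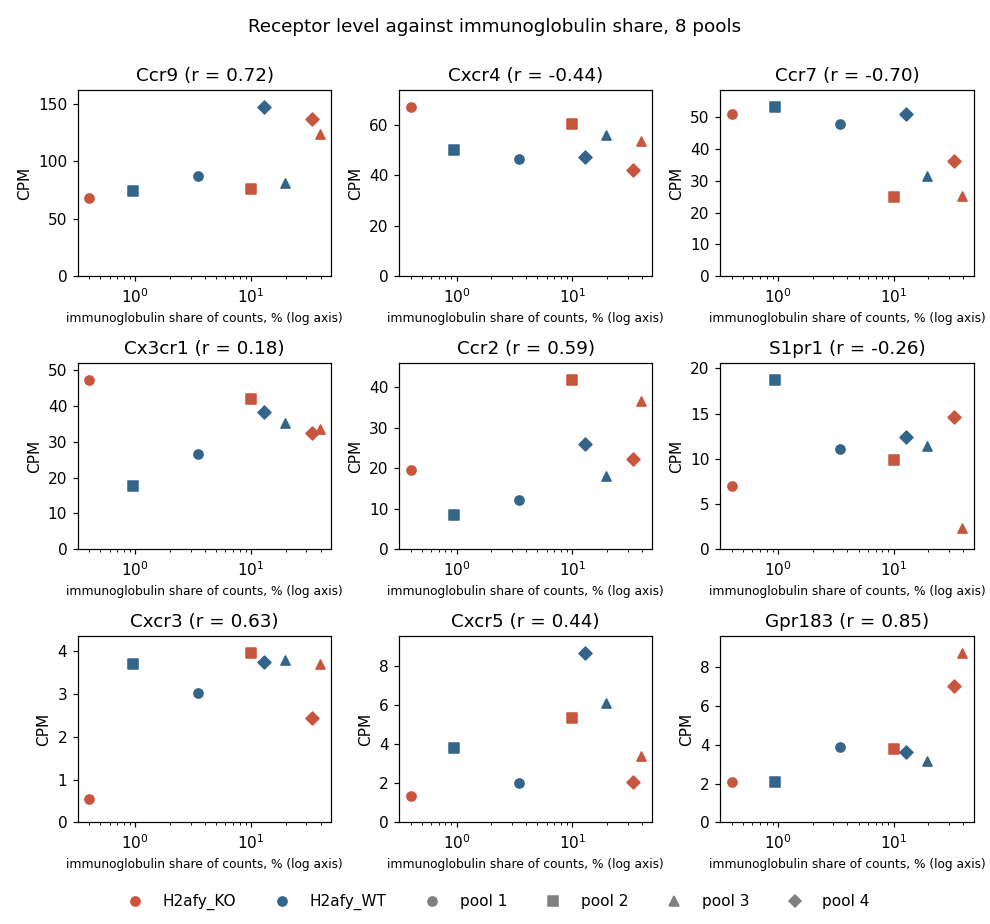
CPM of each receptor gene against the share of counts in immunoglobulin genes (log axis), with H2afy_KO and H2afy_WT pools in separate colours and the Pearson r of log2 values over 8 pools in each title. Gpr183 has the highest r at 0.85, and Ccr7 the lowest at -0.70.

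Markers of mature B and plasma cells summed to 624 to 21252 CPM in H2afy_KO pools and 1664 to 9888 CPM in H2afy_WT pools, led by Jchain, H2-Ob and Mzb1. Of its 14 tested genes, 12 had positive log2 fold changes and 0 passed. Cr2 and Fcer2a, markers of mature resting B cells, averaged 1.04 ± 0.223 and 0.762 ± 0.338 CPM in H2afy_KO, and 0.755 ± 0.733 and 0.602 ± 0.0894 CPM in H2afy_WT (SD, n = 4 each). The plasmacytoid dendritic cell list, without Dntt, which progenitors also express, summed to 877 to 2141 CPM in H2afy_KO pools and 678 to 1260 CPM in H2afy_WT pools. All 9 of its tested genes had positive log2 fold changes, as did 50.1% of all tested genes, and 0 passed. Dntt, which was left out, went the other way, so with it 9 of 10 tested genes were positive. Dntt averaged 4017 ± 751 CPM in H2afy_KO pools, against 5663 ± 649 CPM in H2afy_WT pools (log2 fold change -0.50, edgeR adjusted p = 0.489). Ly6c2 alone ran from 14.1 to 983 CPM in H2afy_KO pools and from 16.4 to 267 CPM in H2afy_WT pools. Cox6a2 was higher in H2afy_KO without overlap. Siglech, at 138 ± 55.0 CPM in H2afy_KO and 105 ± 62.4 CPM in H2afy_WT, overlapped between the genotypes. So did Tcf4, at 435 ± 59.5 CPM in H2afy_KO and 404 ± 42.2 CPM in H2afy_WT. The part of these cells in the Ccr9, Cxcr5, Ccr7 and Gpr183 values was not tested.

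For each receptor, the tested genes with the most similar profile over the 8 pools were looked up by the Pearson r of log2 CPM, as a description. The nearest to Ccr9 was Cflar (r = 0.96, rho = 0.88) and the nearest to Cxcr4 was Tmem20 (r = 0.94, rho = 0.93). Ccr7 was nearest to 2010305A19Rik (r = 0.97, rho = 0.95) and Ccr2 to Gm15247 (r = 0.98, rho = 1), a gene of 0.544 CPM on average. Cx3cr1 was nearest to Gng7, which encodes a G protein gamma subunit (r = 0.96, rho = 0.90), Cxcr3 to Lrrk2 (r = 0.97, rho = 0.90) and Cxcr5 to Gm15445 (r = 0.94, rho = 0.90). S1pr1 was nearest to Zfp879 (r = 0.98, rho = 0.93) and Gpr183 to Clec2g (r = 0.98, rho = 0.93). With 13722 genes and 8 pools, values of this size occurred for every receptor.

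Ligands of the 9 receptors mostly had too few counts in the pools to be tested. Of 13 ligand genes, 3 passed the filter. Ccl19 and Ccl21a had 0 counts in every pool, and Cxcl12, the ligand of Cxcr4 made by marrow stroma, had at most 10 counts in a pool. Cxcl9 had 0.571, 11.3, 1.52 and 1.77 CPM in H2afy_KO 1 to 4, against 0.405, 1.02, 1.55 and 0.301 CPM in H2afy_WT 1 to 4, a log2 fold change of 2.21 (SE 0.95) that came to 0.64 without the high pool, H2afy_KO 2. Cxcl10 had 2.06, 2.52, 3.88 and 2.02 CPM in H2afy_KO 1 to 4, against 0, 1.55, 0.921 and 1.99 CPM in H2afy_WT 1 to 4 (log2 fold change 1.23, SE 0.85). Its groups did not overlap, but the nearest values, in H2afy_KO 4 and H2afy_WT 4, came from only 48 and 53 counts. With single pools left out the Cxcl10 fold change ran from 0.80 to 1.67. Neither Cxcl9 nor Cxcl10 passed over all genes, with adjusted p-values of 0.637 and 0.781 by edgeR.

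Among the 18 other chemokine receptor genes, 10 were tested and 0 passed, with 5 positive and 5 negative log2 fold changes and a median of 0.37. That median ran from 0.03 (without H2afy_WT 3) to 0.52 (without H2afy_WT 4) with single pools left out. It was -0.08 without both H2afy_KO 3 and 4. With no filter, which lets in genes of very few counts, it was -0.25. A filter of 5 CPM in 4 pools kept only Ccrl2 of this list, at -0.10. Each fit was filtered anew, so these medians need not cover the same 10 genes. Cxcr2, the neutrophil receptor, averaged 1.88 ± 0.739 CPM in H2afy_KO pools, against 3.75 ± 2.85 CPM in H2afy_WT pools (SD, n = 4 each), with a fold change of -1.003 on the log2 scale (SE 0.60).

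Of 20 matched receptors for lipids and other attractants, 17 were tested and 0 passed, with a median log2 fold change of 0.07. S1pr3, another sphingosine 1-phosphate receptor, had 73.3, 58.1, 56.2 and 59.9 CPM in H2afy_KO 1 to 4, against 40.2, 25.6, 43.4 and 46.9 CPM in H2afy_WT 1 to 4. All H2afy_KO pools lay above all H2afy_WT pools. edgeR gave a log2 fold change of 0.67 (SE 0.19; adjusted p = 0.462). Under DESeq2 with the replicate block the adjusted p was 0.00643. Ptger4, a prostaglandin E2 receptor, averaged 9.90 ± 1.32 CPM in H2afy_KO pools, against 6.69 ± 1.70 CPM in H2afy_WT pools (SD, n = 4 each), with a fold change of 0.56 on the log2 scale (SE 0.23), also without overlap. S1pr1 and S1pr3 had log2 fold changes of opposite sign, and the difference between them was not tested.

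Sphingosine 1-phosphate and oxysterol metabolism, with 20 of 22 genes tested, had a median log2 fold change of 0.01 and 0 genes passed. Cers6, a ceramide synthase, averaged 29.4 ± 4.44 CPM in H2afy_KO pools, against 19.4 ± 4.88 CPM in H2afy_WT pools (SD, n = 4 each), with a fold change of 0.60 on the log2 scale (SE 0.21), without overlap. Asah1, the acid ceramidase that releases sphingosine, averaged 148 ± 30.3 CPM in H2afy_KO pools, against 114 ± 14.0 CPM in H2afy_WT pools (SD, n = 4 each), with a fold change of 0.38 on the log2 scale (SE 0.16). Under DESeq2 with the replicate block Cers6 passed (adjusted p = 0.0174), as did Plpp3, a lipid phosphate phosphatase (log2 fold change -1.62 in that fit, adjusted p = 0.0385), which was named because it was called there. That fit called 2.07% of all genes higher and 1.95% lower.

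G protein signalling of chemotaxis was close to even between the genotypes. Of 49 tested genes, 26 had positive and 23 negative log2 fold changes, the median was 0.02 and 0 passed. Plcb2, a phospholipase downstream of Gi-coupled receptors, averaged 20.3 ± 4.44 CPM in H2afy_KO pools, against 32.9 ± 8.10 CPM in H2afy_WT pools (SD, n = 4 each), with a fold change of -0.69 on the log2 scale (SE 0.21; edgeR adjusted p = 0.473, and 0.0134 under DESeq2 with the replicate block). Elmo1, which with Dock2 activates Rac, averaged 196 ± 25.04 CPM in H2afy_KO pools, against 242 ± 22.2 CPM in H2afy_WT pools (log2 fold change -0.30, SE 0.13).

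Regulators of receptor desensitization and surface level also held 0 called genes of 22 tested, with a median log2 fold change of 0.07. Rgs18, which shortens G protein signals, averaged 336 ± 94.3 CPM in H2afy_KO pools, against 249.7 ± 51.4 CPM in H2afy_WT pools (SD, n = 4 each), with a fold change of 0.43 on the log2 scale (SE 0.21). Grk4, a receptor kinase, averaged 2.71 ± 0.966 CPM in H2afy_KO pools, against 1.49 ± 0.660 CPM in H2afy_WT pools (log2 fold change 0.86, SE 0.42). Over the 6 lists around the receptors, 121 genes were tested and 0 were called by edgeR.

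**Figure D5:**
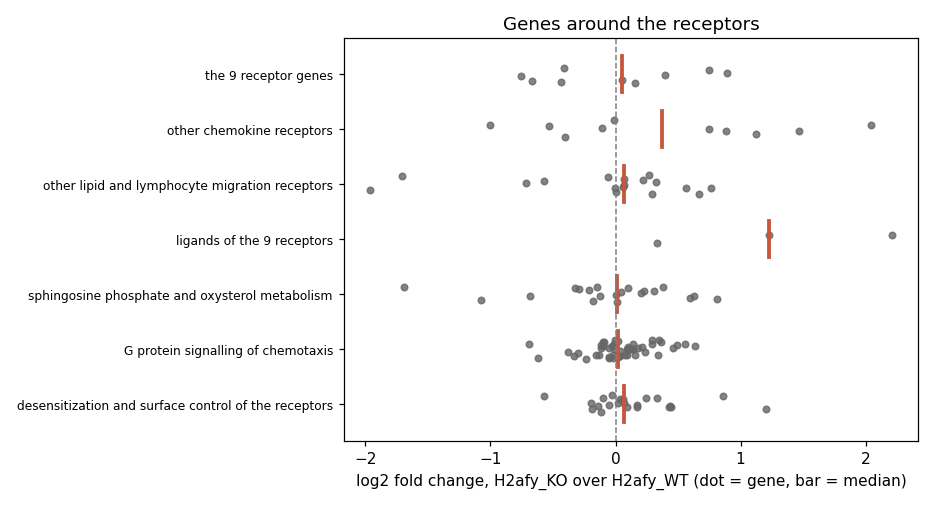
Log2 fold change, H2afy_KO over H2afy_WT, of the 9 receptor genes and of the tested genes in 6 related lists; dots are genes and bars are list medians. Medians lie between 0.01 and 0.07 except for other chemokine receptors at 0.37, which ran from 0.03 to 0.52 with single pools left out, and the 3 tested ligands at 1.23, which ran from 0.64 to 1.67.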

How the data were processed

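The authors deposited raw counts, whole numbers with no scaling, for each Ensembl gene in each of the 8 pools. They sequenced single reads of 50 bases from low-input cDNA, per the labels' protocols. HISAT2 2.0.6 with mm9 did the alignment, per the submitters' processing notes. How reads were assigned to genes, and with which strand option, was not given in the sources used, so reads of overlapping genes on opposite strands cannot be told apart.

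GENCODE M1 (NCBIM37) named 37205 of 37991 IDs. The lists held 250 symbols, of which 17 were found by synonym and 1 was not found. Where a symbol had several IDs, the one with the most counts was used. The main test was edgeR 4.0.16 (quasi-likelihood, TMM, filterByExpr with a minimum count of 10, robust; threshold 0.05) in R 4.3.3; limma 3.58.1 and DESeq2 1.42.0 were alternatives. SEs and 95% intervals come from the edgeR F statistic. CPM used TMM-scaled library sizes, log2 CPM a prior count of 2, and levels per kilobase the union of exons. Immunoglobulin genes were the 481 IDs with an IG biotype. Alternatives were other normalizations and tools, other filters, the replicate block, the immunoglobulin share as a covariate, no immunoglobulin genes, no H2afy_KO 3 and 4, and each pool left out. Correlations used 2-sided exact permutations of the pairings. Some of the fits were also run on simulated counts. Those held no replicate effect and no immunoglobulin difference between pools, so they cannot check the fits, or the block, for these data. Totals differed by at most 1.36-fold between pools, and no pair agreed within sampling noise (smallest chi-square per degree of freedom 101).

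Named genes were the 9 receptors, the 2 smallest p-values in each other list, and the most similar genes, of which the first is given. The result of 1 named gene is not reported here. Members, lists and tests were chosen with earlier results of these data known. The labels number the pools alike in both genotypes without saying what the numbers mean. Between same-numbered pools, deviations from group means correlated across genes at r = 0.19, 0.188, 0.355 and 0.407, all over 0.1, so a replicate block was fitted as an alternative. H2afy_KO 1 correlated best with H2afy_WT 2 (0.524), and H2afy_KO 3 with H2afy_WT 4 (0.454). Whether same-numbered pools belong together is thus not known, and calls under the block rest on that pairing.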

Additional observations from a re-analysis of the deposited data

Results flagged for a closer look

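The CPM values of the 9 receptors, of the 12 genes named from the other lists and of H2afy were checked in each genotype for a single pool far from the other 3, by Dixon's ratio of its gap to the range of the 4 values. That made 44 groups, of which chance flags about 1 in 20. Cxcr3 was low in H2afy_WT 1, at 3.04 CPM, against 3.70 to 3.81 CPM in the other H2afy_WT pools. Cxcl9 was high in H2afy_KO 2, at 11.3 CPM, against 0.571 to 1.77 CPM in the other H2afy_KO pools. Rgs18 was high in H2afy_WT 3, at 326 CPM, against 218 to 236 CPM in the other H2afy_WT pools.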

How the results depend on the processing

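The 9 receptors stayed above an adjusted p of 0.05 in all 19 alternative settings, and 7 of them kept their direction in each setting that gave a value. Ccr9 turned to -0.071 with the immunoglobulin share as a covariate and -0.43 without both H2afy_KO 3 and 4, and ran from -0.13 to 0.32 with single pools left out. Gpr183 turned to -0.12 without both H2afy_KO 3 and 4. A filter of 5 CPM in 4 samples removed Cxcr3, Cxcr5 and Gpr183. Over all genes, where edgeR called 0 (1040 at an unadjusted p under 0.05), the counts were 118 with DESeq2 (47 higher, 71 lower), 520 with DESeq2 and the replicate block (268 higher, 252 lower), 15 with the replicate block in edgeR (4 higher, 11 lower), 16 with no filter (7 higher, 9 lower), 5 with upper-quartile factors (1 higher, 4 lower), 4 with limma-voom (1 higher, 3 lower), 3 with the share as a covariate (1 higher, 2 lower), 3 without immunoglobulin genes (0 higher, 3 lower), 2 with the 5 CPM filter (0 higher, 2 lower) and 0 to 1 with single pools left out. The cause of these differences was not tested. DESeq2 with the block called 1 gene of the lipid receptor list, 2 of the metabolism list and 1 of the G protein list. Over all genes that fit called 2.07% higher and 1.95% lower, so these calls are not read as a result about the lists. The block changed no other call in the lists. The correlations with the immunoglobulin share ran, with single pools left out, from -0.56 to 0.024 for Cxcr4, -0.19 to 0.82 for Cxcr3, -0.43 to 0.78 for Cx3cr1 and -0.55 to 0.29 for S1pr1. The lowest counts in a pool were 17 for Cxcr3, 43 for Cxcr5, 38 for S1pr1 and 55 for Gpr183, and their part in the width of the intervals was not tested.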

Other observations

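The 9 receptors together took 264 to 296 CPM in H2afy_KO pools and 232 to 338 CPM in H2afy_WT pools. Ccr9 made up 25.7%, 28.3%, 42.4% and 46.1% of that sum in H2afy_KO pools 1 to 4, against 36.3%, 31.9%, 32.8% and 43.4% in H2afy_WT pools 1 to 4. Cxcr4 made up 25.4%, 22.6%, 18.5% and 14.2% of that sum in H2afy_KO pools 1 to 4, against 19.4%, 21.6%, 22.7% and 14.0% in H2afy_WT pools 1 to 4. Over the 8 pools the log2 CPM of Cxcr4 and Ccr9 had a Pearson r of -0.68 and a Spearman rho of -0.71, and that of Ccr7 and Ccr2 a Pearson r of -0.73, the lowest of the 36 pairs. Values from the same pools share depth and scaling, so these are descriptions.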
